A study of Mus musculus with 3 samples.

Results

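Dual-specificity phosphatases remove phosphate from both the threonine and the tyrosine of their substrates, and many of them switch off mitogen-activated protein (MAP) kinases. The 10 genes described here, Dusp1, Dusp2, Dusp4, Dusp5, Dusp6, Dusp7, Dusp10, Dusp14, Dusp16 and Dusp22, were taken by name, from 19938 genes measured in the series. All 10 were found, each with 1 probe that matches no other gene. Th0, Th22 and Th17 cultures were compared, with 1 array for each. Every culture began with naive splenic CD4+ T cells of OT-II mice (B6.Cg-Tg(TcraTcrb)425Cbn/J), whose transgenic T cell receptor recognises an ovalbumin peptide. The cells were sorted as CD4+CD25- with high CD62L and low CD44, then activated with that peptide on splenic antigen-presenting cells, depleted of T cells, from Il23a-/- mice. Th0 cells had no added cytokine, Th22 cells had IL-6 alone and Th17 cells had IL-6 with TGFβ. After 60 hours the CD4 cells were purified on magnetic beads and their total RNA was hybridised to a single-colour array. The age of the mice and whether animals were pooled are not given in the labels.

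T cell receptor signals activate the ERK, JNK and p38 MAP kinases, and cells then transcribe phosphatases that remove those signals, a form of negative feedback. The family members differ in where they act and on which kinase. Dusp1, Dusp2, Dusp4 and Dusp5 encode nuclear, inducible enzymes. Dusp6 and Dusp7 encode cytoplasmic enzymes selective for ERK. Dusp10 and Dusp16 encode enzymes selective for p38 and JNK. Dusp14 and Dusp22 encode small atypical enzymes that lack the MAP kinase-binding domain of the others and act on signalling near the T cell receptor.

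Each value below is on a log2 scale relative to the median of that probe over the 3 arrays, so levels cannot be compared between genes, and signal over background is unknown. Of the 19938 genes, 7507 (37.7%) had the same value on every array, which an undetected gene could also have, and 0 of the 10 were among them. The 10 were chosen with earlier results of these data known, and 9 of 17 other genes of the family had equal values. Folds assume base 2 and would be larger if the values were natural logs. No difference has a replicate check, the number of arrays limits the precision, and no test was run. Repeat measurements exist only where a gene has several probes. Over 999 such genes, 95% of differences between probes lay within 0.30 log2 for Th22 against Th0, 0.39 for Th17 against Th0 and 0.36 for Th17 against Th22, which leaves out the spread between cultures. That bound was taken over all 999, whether or not they differed between arrays, and may be too narrow for genes that do. Where a probe passed 1.5-fold, the gene's other probe also did so in the same direction in 53.3%, 70% and 65.2% of cases, in the same order. The subset markers differed between the arrays: Il17f was 4.86 log2 higher in Th22 and 6.25 higher in Th17 than in Th0, and Foxp3 was 3.65 log2 higher in Th17 than in Th22.

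The promoters of 5 of the genes are shown because these genes carry most of the differences described below: Dusp5, Dusp10 and Dusp16 were lower in Th17 than in Th0, Dusp1 was lowest in Th17, and Dusp14 was highest in Th17. Each run is the 250 bases before the RefSeq gene start, from 5′ to 3′ in the direction of the gene, in build GRCm38.p6. Capitals mark matches, on either strand, to one of 8 motifs: the cyclic AMP response element (TGACGTCA), the AP-1 site (TGANTCA), the STAT site (TTCNNNGAA), the SMAD palindrome (GTCTAGAC), the NF-κB site, the CArG box of serum response factor, the GC box (GGGCGG) and the forkhead site (GTAAACA).
Dusp5, chr19:53528895-53529144, + strand: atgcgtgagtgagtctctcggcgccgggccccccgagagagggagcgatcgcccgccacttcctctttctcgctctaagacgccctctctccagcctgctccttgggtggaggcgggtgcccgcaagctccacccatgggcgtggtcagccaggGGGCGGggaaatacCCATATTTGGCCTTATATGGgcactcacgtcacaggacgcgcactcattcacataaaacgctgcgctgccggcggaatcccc
Dusp10, chr1:184034131-184034380, + strand: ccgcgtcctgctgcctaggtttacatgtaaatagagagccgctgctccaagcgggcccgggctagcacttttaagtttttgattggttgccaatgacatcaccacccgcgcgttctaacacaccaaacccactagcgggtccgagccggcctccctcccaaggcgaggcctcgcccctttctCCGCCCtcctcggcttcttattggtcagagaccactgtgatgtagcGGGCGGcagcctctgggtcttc
Dusp16, chr6:134792629-134792878, - strand: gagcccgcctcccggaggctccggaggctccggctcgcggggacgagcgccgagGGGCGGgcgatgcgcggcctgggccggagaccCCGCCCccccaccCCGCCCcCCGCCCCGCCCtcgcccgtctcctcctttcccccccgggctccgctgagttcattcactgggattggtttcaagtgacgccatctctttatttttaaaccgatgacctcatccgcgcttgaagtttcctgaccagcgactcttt
Dusp1, chr17:26508473-26508722, - strand: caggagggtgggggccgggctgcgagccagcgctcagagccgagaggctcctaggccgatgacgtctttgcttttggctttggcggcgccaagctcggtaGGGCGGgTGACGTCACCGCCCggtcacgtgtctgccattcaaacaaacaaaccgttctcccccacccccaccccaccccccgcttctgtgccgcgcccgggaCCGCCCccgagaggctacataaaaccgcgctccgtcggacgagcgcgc
Dusp14, chr11:84068358-84068607, - strand: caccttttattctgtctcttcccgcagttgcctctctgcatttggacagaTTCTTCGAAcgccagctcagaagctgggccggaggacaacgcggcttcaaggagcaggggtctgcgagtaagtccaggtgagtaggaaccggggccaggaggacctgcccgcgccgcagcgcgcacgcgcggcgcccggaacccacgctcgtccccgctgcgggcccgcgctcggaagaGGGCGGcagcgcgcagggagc
The sequence table held a promoter for 9 of the 10 genes, and Dusp4 is the other. The Dusp5 window held 2 adjacent CArG boxes, starting 82 and 72 bases before the start, and no other of the 9 held one, against 1.47% of the 32851 windows in the table. The cyclic AMP response element was found once, in Dusp1 at 143 bases before the start and directly beside a GC box, against 1.55% of all windows. The Dusp14 window held the only STAT site, at 200 bases before the start, against 7.02% of all windows. GC boxes were in 7 of the 9 windows, with 5 of them in Dusp16, against 32.7% of all windows. The 9 windows were rich in G and C, from 56.4% in Dusp6 to 77.6% in Dusp22, beside a median of 52.4% over all windows. The part of base composition in the matches was not tested. The AP-1 site, the SMAD palindrome, the NF-κB site and the forkhead site matched none of the 9, against 6.75%, 0.167%, 0.356% and 3.17% of all windows. A match is a description of letters, and overlapping GC boxes were each counted.

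**Figure D1:**
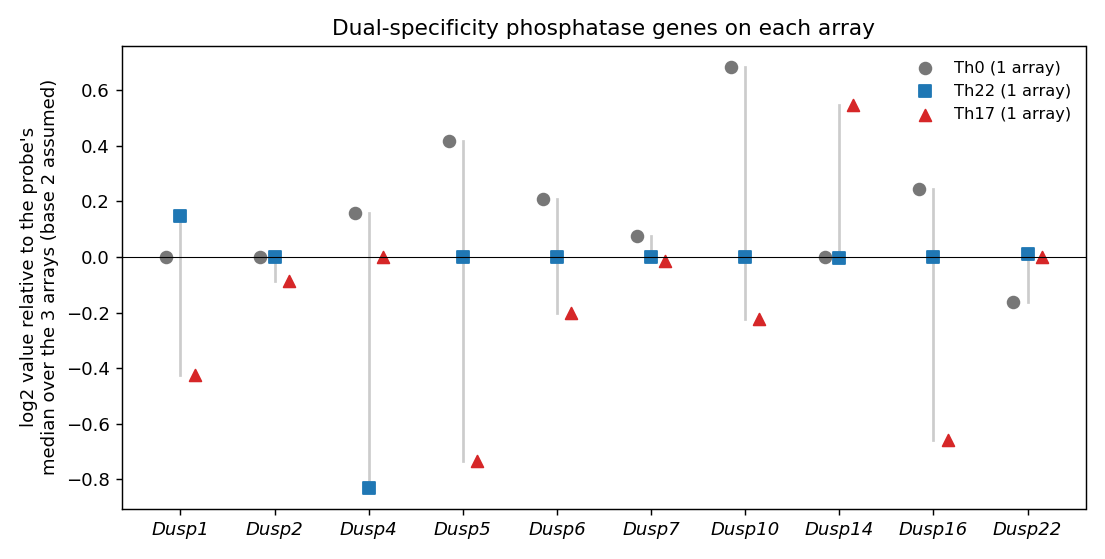
Log2 value of each of the 10 genes on the Th0 (circle), Th22 (square) and Th17 (triangle) array, relative to the probe's median over the 3 arrays, with a grey line over the range. The Th0 value is above the Th22 value and the Th22 value above the Th17 value for Dusp5, Dusp6, Dusp7, Dusp10 and Dusp16, while Dusp4 is lowest in Th22 at -0.83.

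Among the nuclear, inducible phosphatases, Dusp5 and Dusp4 differed most, in different conditions. Dusp5, whose enzyme is selective for ERK, stood at 0.42 in Th0, 0.00 in Th22 and -0.73 in Th17. It was thus highest without cytokine, intermediate with IL-6 and lowest with IL-6 and TGFβ. The Th17 array was 1.15 log2 (2.22-fold) below Th0, and 246 genes of the 19938, Dusp5 included, were lower by at least as much. Th17 lay 0.73 log2 (1.66-fold) below Th22, and Th22 lay 0.42 log2 (1.33-fold) below Th0, so all 3 differences exceeded the bound between probes.

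Dusp4, whose enzyme acts on ERK and other MAP kinases, stood at 0.16 in Th0, -0.83 in Th22 and 0.00 in Th17. Th22 alone was low, and the Th0 and Th17 arrays lay within 0.16 log2 of each other, inside the bound between probes. Dusp4 was 0.99 log2 (1.98-fold) lower in Th22 than in Th0, just short of 2-fold, and 54 genes, Dusp4 included, were lower by at least as much. It was 0.83 log2 (1.78-fold) higher in Th17 than in Th22, the reverse of the direction of Dusp5 in that comparison. Quantile normalization, which forces equal spread on the arrays, put Dusp4 2.57 log2 lower in Th22 than in Th0 and 2.41 log2 higher in Th17 than in Th22.

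Dusp1, an early-response gene whose enzyme acts mainly on p38 and JNK, stood at 0.00 in Th0, 0.15 in Th22 and -0.43 in Th17. The Th17 array was the low one, 0.57 log2 (1.49-fold) below Th22 and 0.43 log2 (1.34-fold) below Th0, while Th22 and Th0 differed by less than the bound between probes. Dusp2, a phosphatase gene of activated lymphocytes, stood at 0.00 in Th0, 0.00 in Th22 and -0.09 in Th17. Its 3 arrays lay within the bound between probes, and its range of 0.09 log2 was the narrowest of the 10. Dusp2 had exactly equal values in Th0 and Th22, as did 45.1% of all genes. An undetected gene could also have such a tie.

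Dusp10 and Dusp16, the 2 genes grouped here as p38 and JNK-selective, were lower in the cultures given IL-6, with unequal steps. Dusp1, whose enzyme also acts mainly on those kinases, was not lower in Th22 than in Th0. Dusp10 stood at 0.68 in Th0, 0.00 in Th22 and -0.22 in Th17. Its larger step lay between Th0 and Th22, where it was 0.68 log2 (1.61-fold) lower, and the further 0.22 log2 to Th17 was inside the bound between probes. In Th17 it was 0.91 log2 (1.87-fold) below Th0. Dusp16 stood at 0.24 in Th0, 0.00 in Th22 and -0.66 in Th17. Its larger step lay between Th22 and Th17, where it was 0.66 log2 (1.58-fold) lower, and the step of 0.24 log2 from Th0 to Th22 was inside the bound. In Th17 it was 0.90 log2 (1.87-fold) below Th0, so in the deposited values both genes ended at nearly the same difference from Th0. Quantile normalization set them apart in that comparison, at -1.07 log2 for Dusp10 and -0.69 log2 for Dusp16.

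The ERK-selective cytoplasmic pair differed little. Dusp6 stood at 0.21 in Th0, 0.00 in Th22 and -0.20 in Th17, and the 0.41 log2 (1.33-fold) between Th17 and Th0 lay just outside the bound between probes. Dusp7 stood at 0.08, 0.00 and -0.01 in the same order, all within that bound.

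The atypical phosphatases were the 2 genes that were higher in Th17 than in Th0. Dusp14, whose enzyme binds the costimulatory receptor CD28, stood at 0.00 in Th0, 0.00 in Th22 and 0.55 in Th17. The Th0 and Th22 arrays were nearly equal and Th17 stood above both, by 0.55 log2 (1.46-fold) in each case. Dusp22, whose enzyme dephosphorylates the receptor-proximal kinase Lck, stood at -0.16 in Th0, 0.01 in Th22 and 0.00 in Th17, and no pair of its arrays differed beyond the bound.

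**Figure D2:**
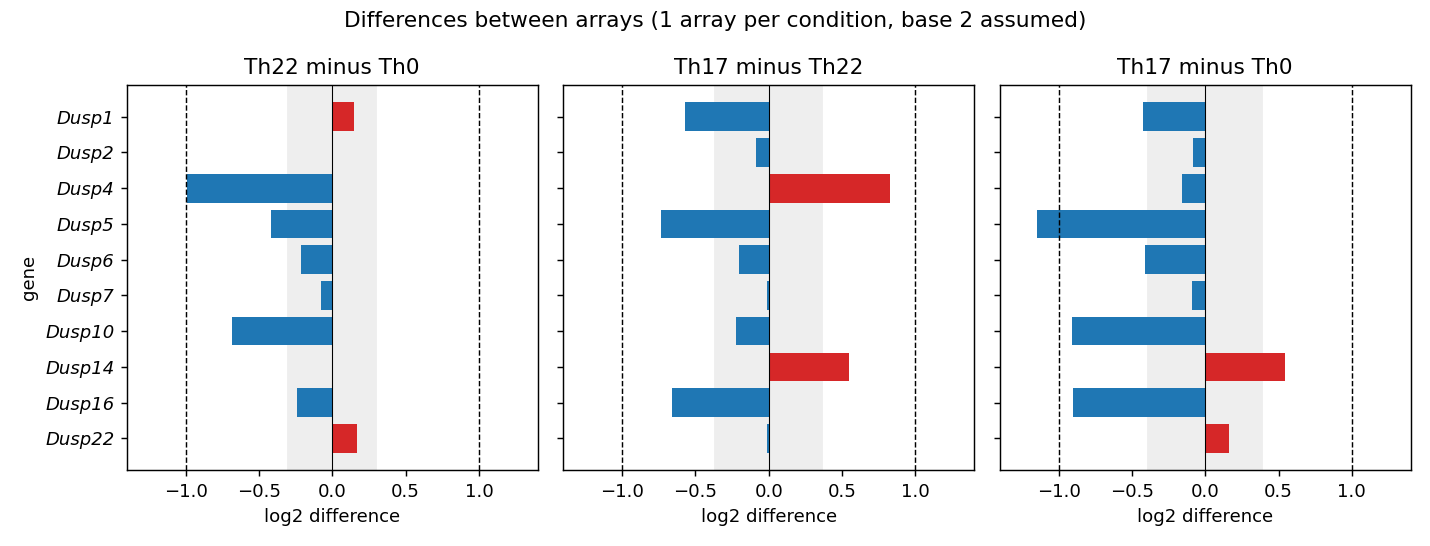
Log2 difference of each gene for Th22 minus Th0, Th17 minus Th22 and Th17 minus Th0, blue where lower and red where higher. Dashed lines mark 2-fold and grey bands hold 95% of the differences between probes of 1 gene; Dusp5 in Th17 minus Th0, at -1.15, is the only bar past a dashed line.

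Counted together, 1 of the 10 genes passed 2-fold in 1 comparison. Of the 10, 0 passed 2-fold for Th22 against Th0, where 0.808% of all genes did so in either direction. For Th17 against Th0 it was Dusp5 alone, against 3.03% of all genes, and for Th17 against Th22 it was 0, against 2.61%. Quantile normalization brought Dusp4 past 2-fold in both comparisons that involve Th22, and Dusp10 past it for Th17 against Th0. At 1.5-fold, 2 genes were lower in Th22 than in Th0 (Dusp4 and Dusp10), against 0.808% of all genes lower by that much. In Th17, 3 were lower than in Th0 (Dusp5, Dusp10 and Dusp16), against 3.34%. In Th17 relative to Th22, 2 were lower (Dusp5 and Dusp16), against 3.37%, and 1 was higher (Dusp4), against 2.12%. Quantile normalization left Dusp5 and Dusp16 under 1.5-fold for Th17 against Th22, at -0.45 and -0.40 log2. The bound between probes was exceeded by 3 of the 10 for Th22 against Th0, by 6 for Th17 against Th0 and by 5 for Th17 against Th22, against 7.67%, 10.3% and 9.97% of all genes. These shares are over all genes, including those equal on every array. Among the 12431 genes that were not equal, the shares past 1.5-fold in either direction were 3.86%, 10.1% and 8.79% in the same order.

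By sign alone, 8 of the 10 were lower in Th17 than in Th0, against 28.1% of all genes, and 7 were lower in Th22 than in Th0, against 31.2%. In Th17 relative to Th22, 8 were lower, against 26.3% of all genes, and some of these differences were as small as 0.01 log2. Those shares are lowered by the many genes that were exactly equal on both arrays. Among genes that differed between the arrays compared, 52.7% were lower in Th17 than in Th0, 56.8% lower in Th22 than in Th0 and 47.3% lower in Th17 than in Th22. The order Th0, then Th22, then Th17 from high to low was found in 5 of the 10, against 9.72% of all genes and 15.6% of those not equal on all arrays. Several steps in these orders were inside the bound between probes, as given above. The opposite order was found in 0 of the 10, against 7.27% of all genes. The median difference of the 10 was -0.14 log2 for Th22 against Th0, -0.29 for Th17 against Th0 and -0.14 for Th17 against Th22, beside a median of 0 over all genes in each comparison. The comparisons with Th0 share the Th0 array and the others share an array in the same way, so these counts are not independent of each other.

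Some cell markers also differed between the arrays. The 10 pan T cell genes measured had a median difference of -0.31 log2 for Th17 against Th22, with 0 past 2-fold. Of 9 B cell markers 6 were equal on all 3 arrays and Ebf1 alone passed 2-fold, in every comparison. Ebf1 was 1.62 log2 higher in Th22 than in Th0, and in Th17 1.05 log2 lower than in Th0 and 2.67 log2 lower than in Th22. Of 14 myeloid and dendritic cell markers 7 were equal on all 3 and 0 passed 2-fold. Of 6 class II presentation genes Cd74 alone passed 2-fold, 1.98 log2 lower in Th17 than in Th0 and 1.19 log2 lower than in Th22. H2-Ab1 was 0.998 log2 lower in Th17 than in Th22, just short of 2-fold, while H2-DMa was 0.21 log2 higher. Of 6 CD8 and NK cell genes Cd8b1 alone passed, 1.38 log2 lower in Th17 than in Th0 and 1.14 log2 lower than in Th22. The part of these markers in the Dusp differences was not tested, and fewer cells of a type cannot be told apart from less RNA per cell in bulk samples.

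Differences in the rest of the family were small. Of 17 other dual-specificity phosphatase genes measured, 9 were equal on all 3 arrays and 0 passed 2-fold in any comparison. Their widest difference was in Dusp19, which was 0.47 log2 lower in Th17 than in Th22 and 0.42 log2 lower than in Th0. Dusp8, which encodes another p38 and JNK-selective enzyme, was equal on all 3 arrays.

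The kinases that these enzymes act on also lay within 2-fold. Of 11 MAP kinase genes measured and 19 genes of MAP kinase kinases and their activators, 0 passed 2-fold in any comparison. Of 18 genes of p38 and JNK partners and effectors 0 passed 2-fold. Quantile normalization brought Map2k3, a kinase gene of the p38 pathway, and Gadd45b, which encodes a partner of p38 and JNK pathway kinases, past 2-fold in both comparisons that involve Th22. If the values were natural logs, Gadd45b would pass in the same comparisons, with other genes of these lists.

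Of 14 genes of signalling from the T cell receptor through Ras to the ERK cascade, 5 were equal on all 3 arrays. Their median was 0 in each comparison, and 3 of them passed 2-fold in 1 comparison each. Ksr1, which encodes a scaffold for the ERK cascade, was 1.18 log2 (2.27-fold) lower in Th17 than in Th22. Rasgrp4, which encodes a Ras activator, was 1.15 log2 (2.22-fold) lower in the same comparison, and 0 were higher by 2-fold. Rasgrp1, the main Ras activator of T cells, stood at 0.19 in Th0, 0.00 in Th22 and -0.82 in Th17. It was 1.01 log2 (2.02-fold) lower in Th17 than in Th0. Its step from Th0 to Th22 was inside the bound between probes.

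The inhibitors and other phosphatases past 2-fold were higher in Th17 than in Th0, but both lists had a median of 0 in that comparison. Of 15 Ras and ERK inhibitor genes, only Rasa3 passed 2-fold. Rasa3, which encodes a Ras GTPase-activating protein, was 1.35 log2 (2.54-fold) higher in Th17 than in Th22. Short of 2-fold, Dok2 and Spry2 were 0.91 and 0.78 log2 lower in Th17 than in Th0, and Spred2 was 0.75 log2 higher. Of 15 genes of other phosphatases of T cell signalling, Ubash3b was 1.45 log2 (2.72-fold) higher in Th17 than in Th22. Ptprj, which encodes the receptor phosphatase CD148, was 2.82-fold higher in Th22 and 3.81-fold higher in Th17 than in Th0.

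Of 20 ERK-responsive transcription factor genes, Elk1 was 1.20 log2 (2.30-fold) higher in Th17 than in Th0. Fosb was 1.23 log2 (2.35-fold) lower in Th17 than in Th22. Over all 129 genes of these lists, 1 passed 2-fold for Th22 against Th0, 5 for Th17 against Th0 and 5 for Th17 against Th22, with a median of 0 in each comparison. Those counts are 0.775%, 3.88% and 3.88% of the lists, beside 0.808%, 3.03% and 2.61% of all genes. Quantile normalization left Ksr1, Rasgrp1, Rasgrp4 and Ubash3b under 2-fold in every comparison, and Rasa3 under 2-fold for Th17 against Th0.

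**Figure D3:**
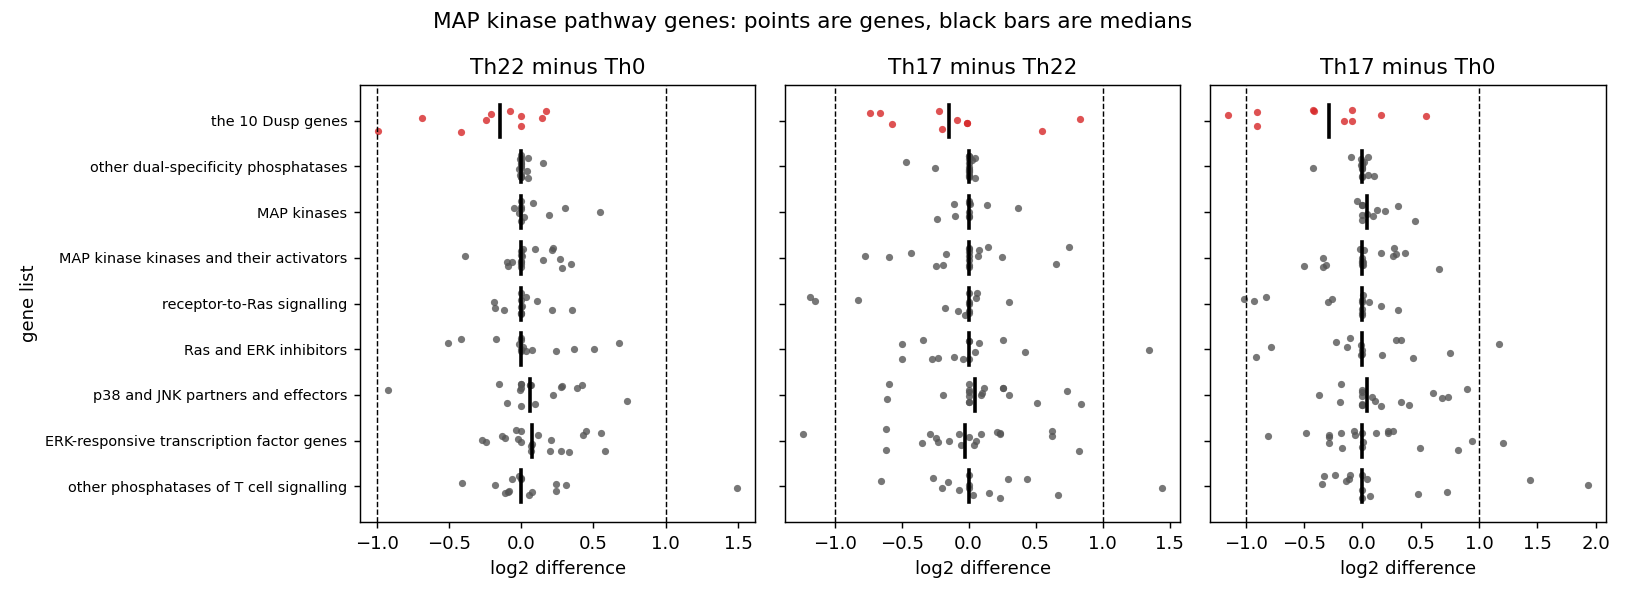
Log2 differences of the 10 Dusp genes (red) and of the genes of 8 MAP kinase pathway lists (grey) in the 3 comparisons, with black bars at the medians and dashed lines at 2-fold; height within a list is random. The other dual-specificity phosphatases cluster at 0, and Ptprj, at 1.93 for Th17 minus Th0, is the farthest point.

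The genes whose pattern lay nearest to Dusp5, the only one of the 10 past 2-fold, were Aff3, Stc2 and Tap1. The measure was the Euclidean distance over 2 differences, Th22 minus Th0 and Th17 minus Th0, and the distances were 0.0500, 0.0603 and 0.0635 log2. Tap1, which encodes a peptide transporter of antigen presentation, was 0.47 log2 lower in Th22 and 1.18 log2 lower in Th17 than in Th0.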

How the data were processed

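Total RNA of 3 cultures of mouse CD4 T cells was measured on 1 single-colour Affymetrix array each, per the labels' protocols, and each array was grouped by the T helper subset in its labels. The deposited table held 28853 probes on an assumed log2 scale, each probe having a median of exactly 0 over the arrays. The sources used here do not state how the authors summarised and normalized the probes, nor the log base. Higher values were read as higher expression. Probes were named from the platform annotation, with symbols updated by Entrez identifier to GRCm38.p6 names (21698 of 21789 probes with 1 symbol). The 1621 probes with several symbols and 5443 not listed were left out, and probes of a gene were averaged.

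Genes were counted past 2-fold, with 1.5-fold as an alternative, using Python 3.11.15 and pandas 2.3.3. The counting and the motif search were tested on simulated data. The named genes are the 10, the pathway list genes past 2-fold and the 3 genes nearest to each of the 10 that passed 2-fold. Dusp8, Dusp19, Map2k3, Gadd45b, Dok2, Spry2, Spred2, the marker genes and the other neighbours were chosen after their values were seen. The genes, lists and motifs were chosen with earlier results of these data known. Alternatives were quantile normalization, centring on a trimmed mean (20% from each end), the probe of widest range, probes with several symbols, and natural logs. Promoters are RefSeq sequences of GRCm38.p6.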

Additional observations from a re-analysis of the deposited data

How the results depend on the processing

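No paired analysis was possible because each condition had 1 array, and for the same reason no array could be left out. Each of the 10 genes has 1 probe, so the probe of widest range and the use of probes with several symbols could not alter their differences. Centring on the trimmed mean moved no count, over all genes either, and so checked nothing. Quantile normalization turned the sign of 0 differences and moved 7 of 30 by more than the SD between probes, most of all Dusp4 for Th22 against Th0, by 1.58 log2; the cause was not tested. It gave 1 of the 10 genes past 2-fold for Th22 against Th0 (Dusp4), 2 for Th17 against Th0 (Dusp5 and Dusp10) and 1 for Th17 against Th22 (Dusp4), and 3 pathway list genes in the first of these comparisons and 2 in the second. At 1.5-fold the counts were 2, 3 and 3 of the 10 and 4, 19 and 21 pathway list genes, in the order Th22 against Th0, Th17 against Th0 and Th17 against Th22. With natural logs they were 1, 3 and 2 of the 10 and 3, 16 and 11 pathway list genes. Because the deposited values are centred, signal over background is unknown, and a small difference near 0 may be one of a gene that was not detected.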

Other observations

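The genes nearest in pattern to the other members past 1.5-fold were looked up after the values were seen. For Dusp4 they were F2r, Gadd45b and Slc6a9, at distances of 0.0559, 0.0727 and 0.0749 log2. Gadd45b, on the list of p38 and JNK partners, stood at 0.19 in Th0, -0.73 in Th22 and 0.00 in Th17. It was thus low in Th22 alone, as Dusp4 was, 0.92 log2 lower than in Th0 and 0.73 log2 lower than in Th17. For Dusp10 the nearest were Jaml, Tyms and Idi2 (0.0539, 0.0696 and 0.0708 log2), and for Dusp16 they were Ppa2, Pdia5 and Zbp1 (0.0328, 0.0330 and 0.0426 log2).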
